A study of Mus musculus with 21 samples.

Results

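Tetraspanins are small membrane proteins that cross the membrane several times and gather partner proteins (integrins, immunoglobulin-family proteins, proteases and signalling receptors) into patches of the cell surface and of endosomes. In leukocytes and microglia they are known for shaping adhesion, receptor traffic and the cargo of extracellular vesicles. The 7 genes described are Cd9, Cd63, Cd81, Cd82, Cd37, Cd53 and Cd151, taken by their symbols from 54532 gene symbols in each of 2 RNA-seq tables. Each of the 7 passed the filter, a mean normalized count of at least 10, which left 16086 genes of the aging table for testing and 17025 of the 5XFAD table. Both tables hold mouse primary brain microglia, with 3 libraries in each of 7 groups. The aging table crosses age with genotype in wild-type (WT) young, Trem1-/- young, WT aged and Trem1-/- aged mice. The 5XFAD table holds adult WT, adult 5XFAD and adult 5XFAD mice that also carry 1 lost Trem1 allele (Trem1+/-). Trem1 encodes a receptor of myeloid cells that amplifies inflammatory signalling. 5XFAD mice carry human transgenes with familial Alzheimer mutations under a promoter active in neurons, so the transgenes are not aimed at microglia. There is no adult Trem1+/- group without the 5XFAD transgenes, and no group links the young and aged mice to the adult ones. Ages are given in words only, and nothing in the labels says whether libraries came from separate or pooled animals, so every p-value measures the spread between these libraries.

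Reads counted on genes numbered 8600878 to 19411434 per library for young and aged mice and 9264999 to 18698707 for adult mice. A member's value rested on 244 reads at the least, for Cd151, and on up to 23729 reads, for Cd81. The summed normalized count of 22 microglial markers was 692807 to 771741 in young WT and 641567 to 678630 in young Trem1-/- libraries. It was 574389 to 582183 in aged WT and 497785 to 566050 in aged Trem1-/- libraries. Among adult mice it was 674322 to 720581 in WT, 526466 to 647300 in 5XFAD and 654570 to 708153 in 5XFAD Trem1+/-. The 15 neutrophil markers summed to 17495 to 26233 in young WT, 38687 to 77826 in young Trem1-/-, 82924 to 149849 in aged WT and 68982 to 159639 in aged Trem1-/- libraries. The 12 monocyte markers summed to 2566 to 5684 in young WT and to 15584 to 39836 in the 3 other groups of that table. In the 5XFAD table the neutrophil sums were 14299 to 57757 and overlapped in every pair of groups. The deleted gene went against its label in the young libraries of the aging table. Trem1 read 25.2, 7.65 and 8.74 normalized counts in young WT libraries and 89.4, 99.8 and 89.5 in libraries labelled young Trem1-/-. It read 269, 188 and 237 in aged WT and 124, 124 and 244 in libraries labelled aged Trem1-/-, which overlapped. The mean was lower under the aged Trem1-/- label, without a call (log2 difference −0.55, adjusted p = 0.743, limma). In adult mice the 9 libraries read 0 to 62.7, and the 3 groups overlapped. Which part of Trem1 the allele removes is not given in the sources used here, so genotypes are given as labelled throughout, and every Trem1-/- or Trem1+/- value below is that of libraries with this label.

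Cd63, the 1 member called in any comparison, and Cd81, the member with the highest level, are shown by the 250 bases before their RefSeq start sites (GRCm38.p6), as the regulatory sequence next to a gene that rose in 5XFAD and next to one that was not called. The Cd63 window is chr10:128909095-128909344 and the Cd81 window chr7:143052500-143052749, both on the plus strand. GENCODE also places starts of longer Cd63 transcripts upstream of this window. Capitals mark GGAAGT, a core recognised by ETS factors, read on either strand.
Cd63: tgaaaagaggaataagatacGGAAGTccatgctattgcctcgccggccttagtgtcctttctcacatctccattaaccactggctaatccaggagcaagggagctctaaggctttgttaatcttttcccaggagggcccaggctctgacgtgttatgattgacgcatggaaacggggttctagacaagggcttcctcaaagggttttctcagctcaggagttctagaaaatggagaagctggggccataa
Cd81: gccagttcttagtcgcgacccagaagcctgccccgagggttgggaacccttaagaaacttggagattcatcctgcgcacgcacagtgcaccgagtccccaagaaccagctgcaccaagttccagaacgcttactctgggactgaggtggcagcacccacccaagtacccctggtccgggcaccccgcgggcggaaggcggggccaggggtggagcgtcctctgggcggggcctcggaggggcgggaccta
The Cd63 window held 48.8% G and C and 6 CpG pairs, and the Cd81 window 65.6% and 16, against a median of 52.4% G and C over 32851 RefSeq windows. GGAAGT occurred once in the Cd63 window and not in the Cd81 window, and in 19.7% of all windows. The 7 members had 11 windows between them. GGAAGT was in 3 of those, that of Cd63, that of Cd37 and 1 of Cd82. Cd37 and Cd82 were not called, and their windows held 2 matches each. CACGTG (the E-box that MITF and TFEB factors read) was in 1, which belongs to Cd37, against 6.02% of all windows. TGANTCA (the AP-1 motif) was in 0, against 6.75%. Both strands were searched, none of the 3 motifs contains another, and a match only describes the window.

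**Figure D1:**
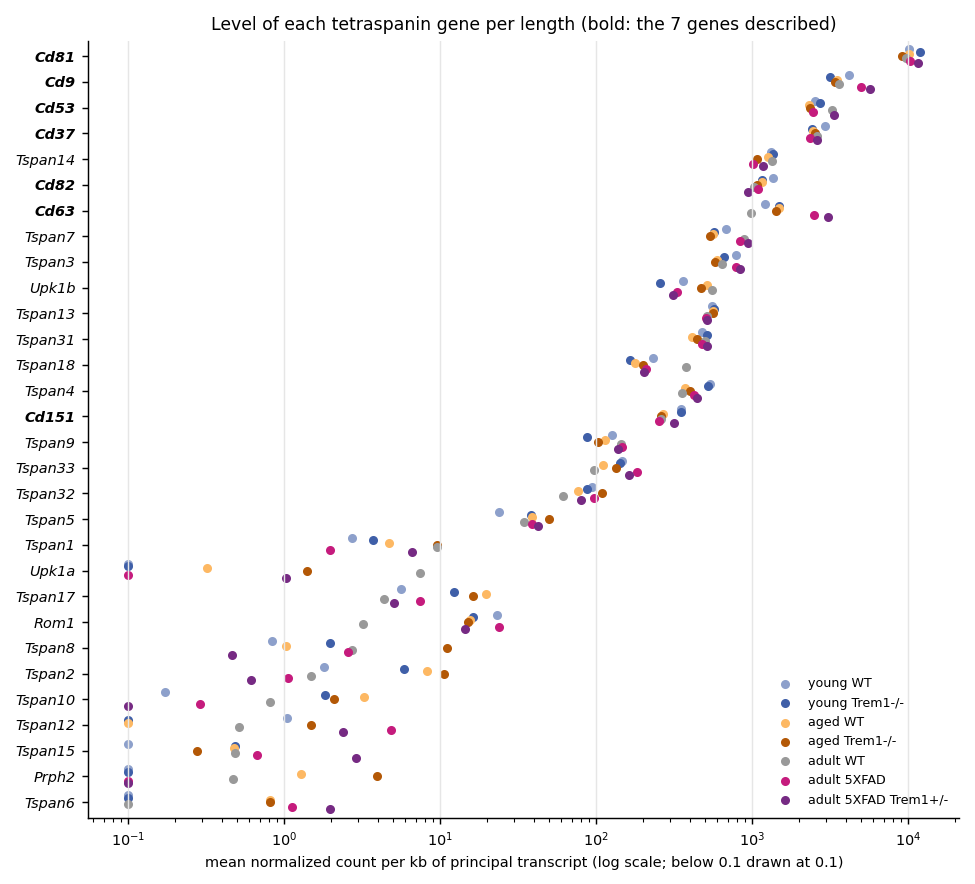
Mean normalized count per kb of principal transcript (log axis) for 30 of 31 tetraspanin genes that reached a mean of at least 1 per kb in any group, ordered by adult WT; each point is the mean of 3 libraries of a group. Cd81 stands highest in every group, and Cd63 is the bold gene whose 5XFAD points lie apart from the others.

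Levels of different genes were set side by side per kb of principal transcript, and the order depends on the length used. Per kb of principal transcript Cd81 had the highest level of all 31 tetraspanin genes listed, at 9761 ± 396 normalized counts per kb (SD, n = 3) in adult WT. Cd81 is a surface scaffold found on many cell types. In adult WT Cd9 followed with 3623 ± 631, then Cd53 with 3249 ± 422 and Cd37 with 2627 ± 109. The difference between Cd9 and Cd53 was smaller than either SD, and that between Cd53 and Cd37 was larger than either. Cd82 with 1035 ± 186 and Cd63 with 981 ± 109 did not differ beyond their spread on this length, and Cd151 was lowest of the 7 with 263 ± 54.0. Of the other family members, Tspan14 had the highest level, 1351 per kb, between Cd37 and Cd82. In adult 5XFAD Cd63 stood at 2507 ± 394 per kb, beside Cd53 at 2467 ± 520 and Cd37 at 2347 ± 136 on the same scale. In young WT the order per kb of principal transcript was Cd81 (10147 per kb), Cd9 (4210), Cd37 (2920), Cd53 (2545), Cd82 (1361), Cd63 (1205) and Cd151 (352). Per kb of all merged exons of a gene, Cd81 was again highest in adult WT (5198), followed by Cd53 (3249), Cd9 (2176), Tspan14 (1263), Cd37 (915), Cd82 (628), Cd63 (296) and Cd151 (179). On that length Cd53 thus stood above Cd9, Tspan14 above Cd37, and Cd82 above Cd63, and in adult 5XFAD Cd63 (755) stood under Cd53 (2467). In young WT Cd53 (2545) and Cd9 (2530) per kb of merged exons were level and Cd37 (1017) was under both. The 2 tables were normalized separately, so levels are not compared across them.

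**Figure D2:**
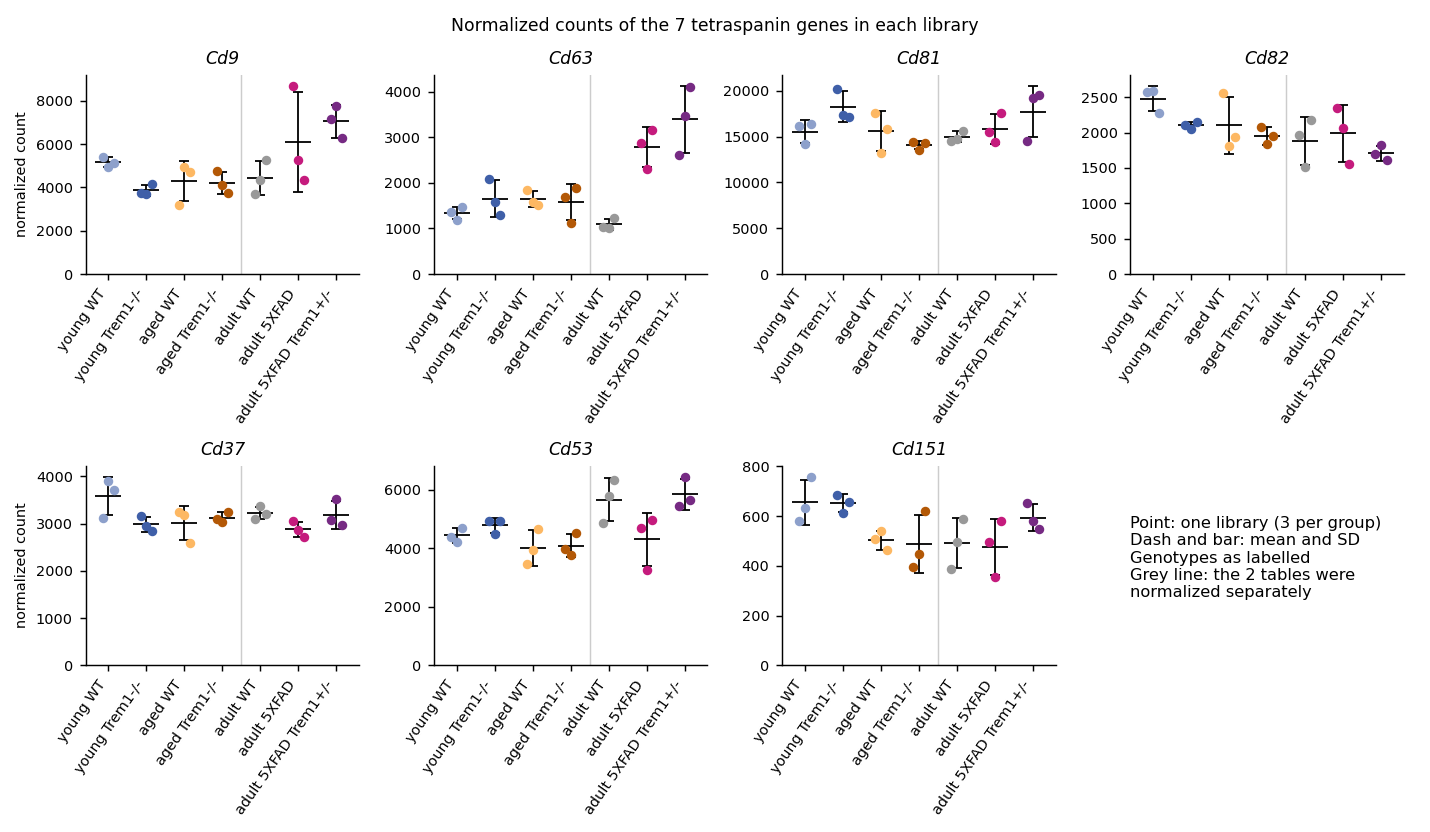
Normalized counts of the 7 genes in each of 21 libraries (points), with the mean and SD of 3 libraries per group, on linear axes from 0. In the Cd63 panel the 6 libraries with the 5XFAD transgenes, at 2307 to 4093, lie above the adult WT libraries, at 1008 to 1227.

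The first question in the 5XFAD table is how adult 5XFAD microglia differed from adult WT microglia. Of the 7 genes, 1 rose and none fell (limma, adjusted p under 0.05), where 1.98% of all genes tested were called in either direction. The gene that rose was Cd63, the tetraspanin of late endosomes, lysosomes and vesicles released from them, and it rose 2.54-fold. The median log2 difference of the 7 was 0.07, beside 0.0011 over all genes. Groups did not overlap for 1 member higher and 1 lower, where 17.3% of all genes had groups without overlap.

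Cd63 (chromosome 10, 128900989 to 128912822, plus strand, GRCm38; protein coding) read 1030, 1008 and 1227 normalized counts in adult WT libraries. It read 2864, 2307 and 3170 in adult 5XFAD libraries. Every 5XFAD library was above every WT library. The log2 difference was 1.35 ± 0.16 (SE; 95% interval 1.003 to 1.69; adjusted p = 1.46e-04, limma), which placed it 14th by p among 17025 genes and 1650th by size of rise. When each library in turn was left out the log2 difference ranged from 1.245 to 1.47, with adjusted p between 4.07e-04 and 0.00285. The call was lost when limma was run without the trend and the robust step (adjusted p = 0.0852), a setting under which 32 genes in all were called instead of 337. In the authors' deposited table the Cd63 log2 fold change was −1.35 (adjusted p 1.24e-10 as deposited). The direction is not stated there. It was inferred as WT over 5XFAD, which the authors' values tracked across genes (correlation 0.963).

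Cd63-ps, a transcribed processed pseudogene, is a near copy of the Cd63 transcript, and reads may have been split between them. It read 103, 177 and 102 normalized counts in adult WT and 247, 419 and 301 in adult 5XFAD. Its groups did not overlap either, with a log2 difference of 1.35 ± 0.35 that missed the threshold (adjusted p = 0.0519). With the reads of both rows added together, an alternative chosen after seeing the data, the log2 difference of Cd63 was 1.35 (adjusted p = 1.09e-04). The pseudogene read less than Cd63 in every library. A second pseudogene, Cd9-ps, was listed at 0 in all libraries.

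A share within a library does not depend on its scaling factor. Cd63 was 7.10%, 6.84% and 7.84% of the Cd81 normalized count in adult WT libraries. It was 18.5%, 16% and 18.01% in adult 5XFAD libraries. The groups lay far apart relative to their spread, 7.26 ± 0.52% and 17.5 ± 1.31% (SD, n = 3; two-sided exact permutation p = 0.10, the smallest that 3 against 3 libraries allow).

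**Figure D3:**
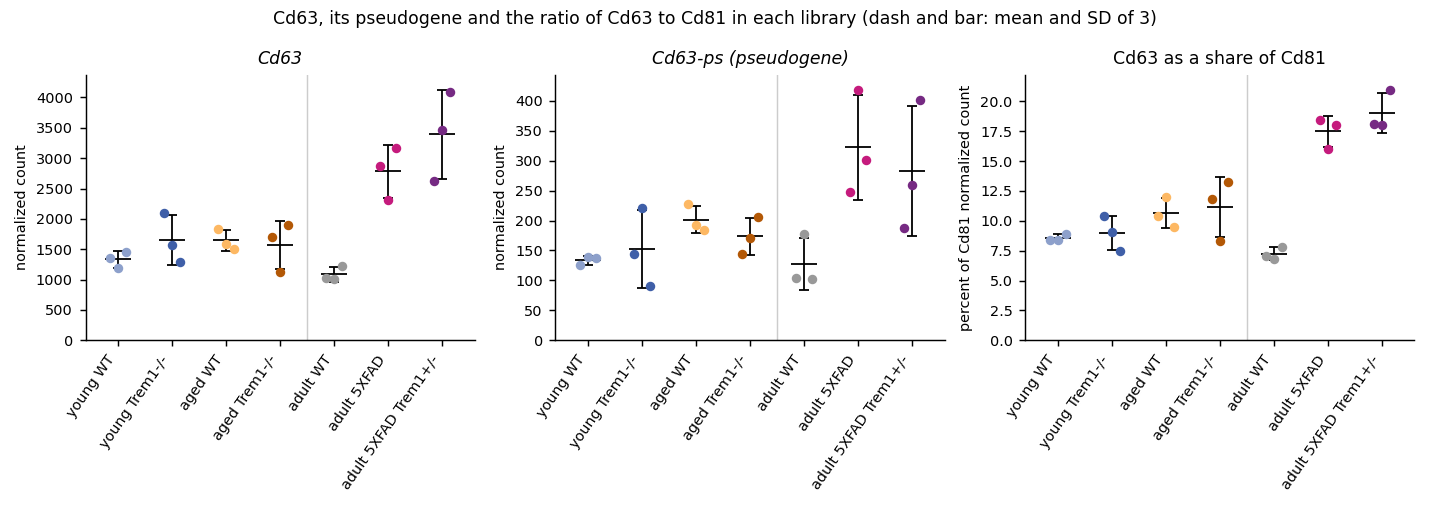
Normalized counts of Cd63 and of its pseudogene Cd63-ps, and Cd63 as a percent of the Cd81 normalized count, in each library (points) with the mean and SD of 3 libraries per group. The share of Cd81 is 6.84% to 7.84% in adult WT and 16% to 21.0% in the 2 groups with the 5XFAD transgenes.

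Markers of other cells moved beside Cd63. The 6 ependymal and choroid plexus markers summed to 2271 to 6568 normalized counts in adult WT, 14962 to 81767 in adult 5XFAD and 18243 to 103245 in adult 5XFAD Trem1+/- libraries. None of the 5 tested passed, with a median log2 difference of 3.04 in 5XFAD against WT. Ccdc153, a ciliated-cell gene, was listed at 0 in the adult WT and the 5XFAD Trem1+/- libraries. The 8 astrocyte markers summed to 3152 to 4020 in adult WT and 4122 to 6346 in adult 5XFAD, and 1 of 8, Gfap, rose. Gfap lost its call without the second WT library or the first or the second 5XFAD library (adjusted p up to 0.118) and without the trend and the robust step (adjusted p = 0.112). Of 13 genes that respond to tissue dissociation, Egr1 (adjusted p = 0.0446) and Ier2 (adjusted p = 0.0189) rose in 5XFAD against WT, each losing its call without 3 or more of the 6 libraries, and none was called in 5XFAD Trem1+/- against WT. The libraries with the highest choroid plexus sums, the first of each 5XFAD group, read 2864 and 2621 for Cd63, while the third of each read 3170 and 4093 with sums of 25404 and 30797. Without that first library Cd63 was called in 5XFAD (adjusted p = 0.00192) and in 5XFAD Trem1+/- (adjusted p = 4.01e-06), while the choroid plexus sums of the 4 remaining libraries, 14962 to 30797, were above every WT sum. The part of these cells in the Cd63 values was not tested. None of the 15 neutrophil and 12 monocyte markers was called in the comparisons of the 5XFAD table. None of 9 border macrophage markers was called either, with medians of 1.24 in 5XFAD and 1.54 in 5XFAD Trem1+/- against WT. Groups did not overlap for 4 and 5 of them, all higher, where 17.3% and 25.5% of all genes had groups without overlap. The 8 neuronal markers summed to 99.0 to 150 in adult WT, 215 to 572 in adult 5XFAD and 166 to 199 in 5XFAD Trem1+/-. The part of these cells was not tested either. In bulk RNA a change in the share of cells cannot be told apart from a change in RNA per cell.

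The other 6 members were not called in 5XFAD against WT. Cd9 (chromosome 6, 125460266 to 125494791, minus strand) organises integrins and immunoglobulin-family partners at the surface of myeloid cells and limits their fusion. It read 3721, 4360 and 5264 in adult WT and 8699, 5269 and 4350 in adult 5XFAD. The first 5XFAD library stood well above the rest while the third lay inside the WT range. The log2 difference was 0.41 ± 0.23 (95% interval −0.11 to 0.93, adjusted p = 0.451, limma). That first library also had the highest choroid plexus sum (81767) and astrocyte sum (6346) of its group. In 5XFAD Trem1+/- the library with a choroid plexus sum of 103245 read 7148 for Cd9. The second library there read 7766 with a sum of 18243. The part of these cells in the Cd9 values was not tested.

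Cd53 (chromosome 3, 106759921 to 106790149, minus strand) is restricted to leukocytes and is known for stabilising adhesion receptors. It read 4864, 5798 and 6315 in adult WT and 4680, 3264 and 4951 in adult 5XFAD. The groups overlapped by 1 library, and the log2 difference was −0.41 ± 0.15 (95% interval −0.72 to −0.10; adjusted p = 0.185). Cd37 (chromosome 7, 45233632 to 45239115, minus strand), another leukocyte tetraspanin, which holds the fungal receptor Dectin-1 at the surface, read 3102, 3368 and 3202 in WT and 3049, 2873 and 2715 in 5XFAD. Its groups did not overlap, yet the log2 difference was only −0.16 ± 0.12 (adjusted p = 0.546).

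Cd81, Cd82 and Cd151 had overlapping groups. Cd81 (chromosome 7, 143052739 to 143067934, plus strand) differed by 0.08 ± 0.11 on the log2 scale (95% interval −0.16 to 0.32). Cd82 (chromosome 2, 93419111 to 93463140, minus strand), known as a suppressor of tumour metastasis, differed by 0.07 ± 0.16 (95% interval −0.27 to 0.42). Cd151 (chromosome 7, 141467392 to 141471473, plus strand), which binds laminin-binding integrins, differed by −0.05 ± 0.23 (95% interval −0.53 to 0.43). The 95% intervals of all 6 uncalled members ended below 1.35, the log2 difference of Cd63.

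**Figure D4:**
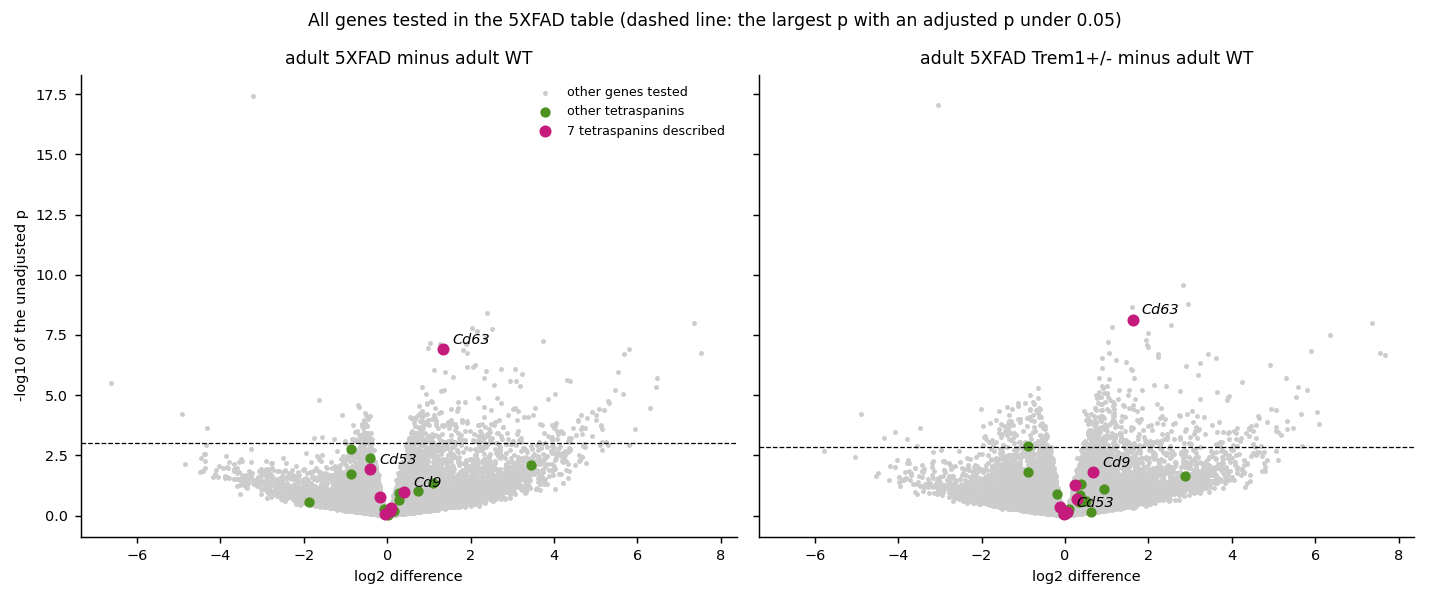
Log2 difference (x axis) against −log10 of the unadjusted p (y axis) for all 17025 genes tested in 5XFAD and in 5XFAD Trem1+/- against adult WT. Cd63 lies at 1.35 and 1.62, above the dashed line that marks an adjusted p of 0.05, while Cd9 and Cd53 lie under it.

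Adult 5XFAD Trem1+/- libraries were compared with the same 3 adult WT libraries, so this comparison shares its controls with the last one. Of the 7 genes, again 1 rose and none fell, where 2.78% of all genes were called. Groups did not overlap for 2 members, both higher, where 25.5% of all genes had groups without overlap. Cd63 read 2621, 3460 and 4093 in the Trem1+/- libraries, each over the highest WT value of 1227. The log2 difference from WT was 1.62 ± 0.16 (95% interval 1.28 to 1.96; adjusted p = 2.47e-05, limma), a 3.08-fold rise that placed Cd63 5th by p. It ranged from 1.47 to 1.79 with each library left out and lost its call without the trend and the robust step (adjusted p = 0.0552). Cd63 was 18.1%, 18.02% and 21.0% of Cd81 in these libraries. Cd63-ps read 187, 259 and 401 and missed the threshold, at 1.12 ± 0.35 (adjusted p = 0.0911).

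Cd9 was the second member without overlap in this comparison. It read 7148, 7766 and 6268 in the Trem1+/- libraries, all above the highest WT library at 5264. The log2 difference of 0.68 ± 0.23 (95% interval 0.16 to 1.19) was not called (adjusted p = 0.177). It was called when only these groups were fitted (adjusted p = 0.00804) and by DESeq2 on recovered reads (adjusted p = 0.0210). The remaining 5 members lay between −0.13 for Cd82 and 0.29 for Cd151, with adjusted p of 0.328 or more.

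The direct question, whether losing 1 Trem1 allele changed tetraspanins in 5XFAD microglia, gave no call. None of the 7 was called by limma, where 0% of all genes were called (0 of 17025, with 883 at an unadjusted p under 0.05, 16 called by DESeq2 and 0 by edgeR on recovered reads). The Cd63 difference between 5XFAD Trem1+/- and 5XFAD was 0.28 ± 0.16 (95% interval −0.07 to 0.62; adjusted p = 0.931) with overlapping groups. Cd53 was the 1 member without overlap, where 11.9% of all genes had none. It read 5445, 6427 and 5646 in Trem1+/- against 4680, 3264 and 4951 in 5XFAD, a log2 difference of 0.46 ± 0.15 (95% interval 0.15 to 0.77; adjusted p = 0.863). The Trem1+/- values of Cd53 overlapped those of adult WT, 4864 to 6315. The median of the 7 was 0.27, beside 0.02 over all genes.

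**Figure D5:**
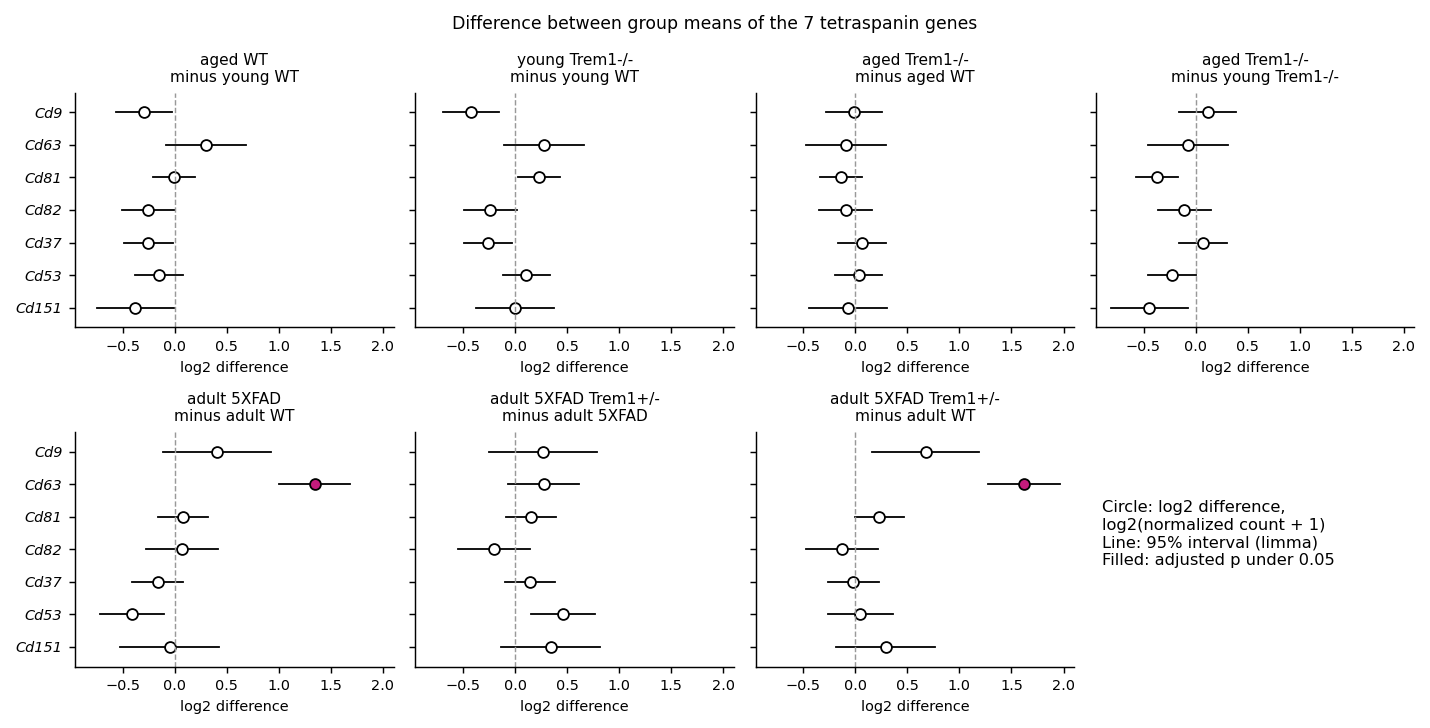
Log2 difference (circle) and 95% interval (line) of each of the 7 genes in 7 comparisons from the limma fits, filled where the adjusted p is under 0.05. Only Cd63 in the 2 comparisons with adult WT is filled, at 1.35 and 1.62, and every interval in aged Trem1-/- against aged WT crosses 0.

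With age in WT microglia no tetraspanin was called, while 8.67% of all genes were. The 7 differences lay between −0.38 and 0.30 with a median of −0.25, beside −0.0067 over all genes. Groups did not overlap for 3 of them, 1 higher and 2 lower, where 26.2% of all genes had groups without overlap.

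Cd9 read 5415, 4963 and 5134 in young WT and 3213, 4937 and 4735 in aged WT. The 3 aged libraries were all lower, 2 of them only slightly, and the log2 difference was −0.29 ± 0.13 (95% interval −0.56 to −0.02; adjusted p = 0.188). Cd151 read 580, 631 and 757 in young WT and 507, 540 and 462 in aged WT. It too was lower without overlap, by a log2 difference of −0.38 ± 0.18 (95% interval −0.75 to −0.003; adjusted p = 0.225). Cd63 read 1360, 1187 and 1461 in young WT and 1834, 1591 and 1512 in aged WT. It was higher without overlap, at 0.30 ± 0.18 (95% interval −0.08 to 0.69; adjusted p = 0.379). As a share of Cd81 it was 8.58 ± 0.30% in young and 10.7 ± 1.26% in aged WT (SD, n = 3; two-sided exact permutation p = 0.10).

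Cd82 at −0.25 ± 0.12, Cd37 at −0.25 ± 0.11 and Cd53 at −0.15 ± 0.11 had overlapping groups and adjusted p of 0.184 or more. Without the first aged WT library Cd82 was called (adjusted p = 0.0448). Cd81 was level on average. It read 16156, 14153 and 16355 in young and 17615, 13248 and 15882 in aged WT, a difference of −0.004 ± 0.10 (95% interval −0.21 to 0.20), which became 0.0079 under TMM scaling. In the same comparison 14 of 15 neutrophil, 10 of 12 monocyte and 1 of 9 border macrophage markers rose. Of 5 ependymal and choroid plexus markers 2 rose, with a median of 1.97, and the summed level of the list was 6038 to 14980 in young WT and 27045 to 44837 in aged WT. Of 14 dissociation genes 3 rose, with a median of 1.66. Their part in the values of the members was not tested.

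Young microglia labelled Trem1-/- were compared with young WT. None of the 7 was called, where 2.58% of all genes were. Groups did not overlap for Cd9 and Cd82, both lower, and Cd81, higher, where 20.4% of all genes had none. Cd9 read 3747, 3696 and 4151 in young Trem1-/- against 4963 to 5415 in young WT. The gap was wider than the spread of either group, with a log2 difference of −0.42 ± 0.13 (95% interval −0.69 to −0.15), yet it missed the threshold (adjusted p = 0.103). It passed when only these 2 groups were fitted (adjusted p = 0.00458). Cd82 read 2112, 2047 and 2147 against 2581, 2591 and 2274, at −0.24 ± 0.12 (adjusted p = 0.486). Cd81 read 20194, 17393 and 17152 against 14153 to 16355, at 0.23 ± 0.10 (adjusted p = 0.322). Cd63 read 2094, 1572 and 1286 and overlapped young WT. Of the markers of other cells, 4 of 15 neutrophil, 6 of 12 monocyte and 1 of 9 border macrophage genes rose here. Of 14 dissociation genes 4 rose, with a median of 1.11. Their part in these values was not tested.

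Between aged Trem1-/- and aged WT the 7 genes were closest, with log2 differences from −0.14 for Cd81 to 0.06 for Cd37. None was called and none had groups without overlap, where 12.2% of all genes had. No gene at all was called by limma (0%, with 1545 of 16086 at an unadjusted p under 0.05, 30 called by DESeq2 and 0 by edgeR on recovered reads). The widest intervals, those of Cd63 (−0.48 to 0.29) and Cd151 (−0.44 to 0.31), show how large a difference the data still allow.

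Among libraries labelled Trem1-/-, aged against young, none of the 7 was called, where 1.71% of all genes were. Cd81 came closest. It read 14395, 13522 and 14331 in aged and 17152 to 20194 in young Trem1-/-, the 1 member without overlap, where 21.2% of all genes had none. The log2 difference was −0.37 ± 0.10 (95% interval −0.57 to −0.17; adjusted p = 0.0535). It passed the threshold with a pseudocount of 5 (adjusted p = 0.0411), with no filter on low values (0.0323), under TMM (0.0464), with a replicate block (0.0154), with only these groups fitted (0.0181) and by DESeq2 (0.0281). Cd151 read 394, 449 and 620 in aged and 614 to 684 in young libraries, at −0.44 ± 0.18 (adjusted p = 0.233). The third aged library lay inside the young range. The other 5 members lay between −0.23 for Cd53 and 0.11 for Cd9. Of 5 ependymal and choroid plexus markers 1 rose here, with a median of 2.335. Their list summed to 2418 to 14859 in young and 30961 to 40928 in aged Trem1-/- libraries. Of 15 neutrophil markers 1 rose, and of 12 monocyte markers none. Their part in these values was not tested.

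The interaction of age and genotype asks whether the age difference was the same in both genotypes. No member was called, where 2.54% of all genes were. The values of the 7 lay between −0.37 for Cd63 and 0.41 for Cd9. Cd81 had the smallest adjusted p, at −0.37 ± 0.14 (adjusted p = 0.183), and was called without the second aged WT library (adjusted p = 0.0265). The age difference of Cd9 was −0.29 in WT and 0.11 in Trem1-/-, with an interaction of 0.41 ± 0.18 (95% interval 0.02 to 0.79; adjusted p = 0.287).

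The rest of the family was followed through 24 other tetraspanin genes, of which 16 passed the filter for young and aged mice and 14 for adult mice. In all comparisons together 2 calls were made among them, 1 in aged against young Trem1-/- and 1 in 5XFAD Trem1+/- against WT. Of all genes 1.71% and 2.78% were called in those comparisons. Upk1b, a uroplakin of bladder epithelium, rose in aged against young Trem1-/- (0.92 ± 0.18, adjusted p = 0.0102), from 367, 442 and 659 to 966, 834 and 897 normalized counts. This call was lost without the second young Trem1-/- library (adjusted p = 0.0583) and by limma without the trend and the robust step (0.156). Among WT mice Upk1b was also higher in aged (832 to 1177) than in young libraries (668 to 712), without a call. Both 5XFAD (360 to 963) and 5XFAD Trem1+/- libraries (389 to 755) were lower than adult WT (1012 to 1120), again without a call. Tspan18 fell in 5XFAD Trem1+/- against WT (−0.89 ± 0.23, adjusted p = 0.0481), from 1732, 1501 and 1037 to 885, 790 and 603. That call was lost without the first or the second WT library or the second or the third Trem1+/- library (adjusted p up to 0.243), with a pseudocount of 0.5 (0.0528), a mean of at least 50 (0.0503), TMM (0.0520), limma without the trend and the robust step (0.266) and edgeR (0.0703). Adult 5XFAD libraries without the Trem1+/- label read 641 to 1072 for Tspan18. They overlapped the Trem1+/- libraries and were not called against WT. Tspan14, a scaffold of the protease ADAM10, was not called in any comparison. Adam10 itself fell in aged against young Trem1-/- (−0.38 ± 0.09, adjusted p = 0.0436), the 1 call among ADAM10 and its tetraspanins, and lost the call on leaving out any of the 6 libraries (adjusted p = 0.0642 to 0.184). Its call was also lost under edgeR (adjusted p = 0.064) and by limma without the trend and the robust step (adjusted p = 0.238).

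The partners to which tetraspanins bind were followed through 24 genes. Of 20 tested 6 rose and none fell with age in WT, with a median of 0.15, where 8.67% of all genes were called and 14 of 15 neutrophil and 10 of 12 monocyte markers rose. The 3 with the smallest p were H2-Ab1 (an MHC class II chain), Cd44 (a hyaluronan receptor) and Clec7a (Dectin-1, the partner of Cd37). Cd44 changed by 2.86 ± 0.36 on the log2 scale (adjusted p = 0.00105) and Clec7a by 1.36 ± 0.25 (adjusted p = 0.00144). In young Trem1-/- against young WT 2 of 20 rose, where 2.58% of all genes were called and 6 of 12 monocyte markers rose. They were Cd44 (2.45 ± 0.36, adjusted p = 0.00591) and the integrin chain Itga4 (adjusted p = 0.0352, lost without any of 4 of the 6 libraries, up to 0.126). Itga4 also lost its call with a replicate block (adjusted p = 0.106) and with only these groups fitted (0.187). The same held with no filter on low values (0.0828) and by limma without the trend and the robust step (0.0681). In the interaction of age and genotype 2 fell, where 2.54% of all genes were called and 5 of 12 monocyte markers fell. They were Cd44 (−3.03 ± 0.50, adjusted p = 0.0159) and the integrin chain Itgb2 (−0.64 ± 0.15, adjusted p = 0.0194). The Cd44 interaction was lost without the third aged WT library (adjusted p = 0.0504) or the second aged Trem1-/- library (adjusted p = 0.0536). That of Itgb2 was lost without any of 5 of the 12 libraries (adjusted p up to 0.0795). Limma without the trend and the robust step called neither interaction (adjusted p = 0.0652 for Cd44 and 0.243 for Itgb2). In aged against young Trem1-/- 1 of 20 rose and 2 fell, where 1.71% of all genes were called. The claudin Cldn1 rose (2.83 ± 0.68, adjusted p = 0.0305) and lost its call without any of 5 of the 6 libraries (adjusted p up to 0.170), and Adam10, on this list too, fell as given above. The Cldn1 call was also lost under edgeR (adjusted p = 0.0549) and by limma without the trend and the robust step (adjusted p = 0.1745). Itga6, a chain of the laminin receptors that Cd151 binds, fell by 0.59 on the log2 scale (SE 0.10, adjusted p = 0.0043), beside an uncalled −0.44 for Cd151 (adjusted p = 0.233). In 5XFAD against WT, 1 of 20 rose and 1 fell, where 1.98% of all genes were called. Clec7a rose (2.38 ± 0.22, adjusted p = 3.28e-05), and Itgav, the alpha chain of vitronectin receptors, fell (−0.49 ± 0.11, adjusted p = 0.0205). Itgav lost its call without the second or the third WT library or the second 5XFAD library (adjusted p = 0.0533 to 0.105). In 5XFAD Trem1+/- against WT only Clec7a was called (2.82 ± 0.22, adjusted p = 2.29e-06), where 2.78% of all genes were.

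Cd63, Cd9 and Cd81 proteins mark extracellular vesicles, and 23 genes of vesicle formation were followed beside them. Of 21 tested none was called in 5XFAD against WT, with a median of −0.01, and 1, Sdc4 (a heparan sulfate proteoglycan), rose in 5XFAD Trem1+/- (1.22 ± 0.29, adjusted p = 0.0263). Sdc4 lost that call without the first or the second WT library or the second or the third Trem1+/- library (adjusted p = 0.0580 to 0.224). Of all genes 2.78% were called in that comparison. With age in WT 4 of 21 rose, where 8.67% of all genes were called, namely Flot2, a raft scaffold (1.55 ± 0.17, adjusted p = 1.39e-06), the annexins Anxa1 and Anxa2, and Pdcd6ip, the ALIX protein that sorts cargo (0.37 ± 0.11, adjusted p = 0.0313). Pdcd6ip lost its call without the first or the second young WT library or the third aged WT library (adjusted p = 0.0612 to 0.199) and under edgeR (adjusted p = 0.0566). It was also lost with only these groups fitted (adjusted p = 0.0644) and by limma without the trend and the robust step (adjusted p = 0.153). In young Trem1-/- against young WT 3 of 21 rose, where 2.58% of all genes were called. They were Flot2 (1.29 ± 0.17, adjusted p = 6.61e-05), Anxa2 (2.59 ± 0.38, adjusted p = 0.00559) and Anxa1 (adjusted p = 0.0357, lost without any of the 6 libraries, up to 0.132). Anxa1 also lost its call with no filter on low values (adjusted p = 0.0757) and by limma without the trend and the robust step (adjusted p = 0.0596). In aged against young Trem1-/- none of 21 was called. In the interaction 2 fell, where 2.54% of all genes were called. They were Flot2 (−1.55 ± 0.23, adjusted p = 9.77e-04) and Anxa2 (−3.27 ± 0.54, adjusted p = 0.0145), the second lost without the second aged Trem1-/- library (adjusted p = 0.0534). Both calls were lost by limma without the trend and the robust step (adjusted p = 0.0652 and 0.0652), where 5 genes in all kept an interaction call. Neutrophils and monocytes express annexins strongly, and their markers rose with age in WT and in young Trem1-/-. Their part was not tested.

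Cd63 protein resides in late endosomes and lysosomes, and 22 genes of these compartments were followed. Of 21 tested 6 rose in 5XFAD and 9 in 5XFAD Trem1+/- against WT, with none falling and medians of 0.36 and 0.58. Of all genes 1.98% and 2.78% were called. Gpnmb, a lysosomal glycoprotein, rose from 4.27 ± 7.40 normalized counts in adult WT to 446 ± 72.5 in adult 5XFAD (SD, n = 3). The proteases Ctsl (0.94 ± 0.15) and Ctsb (0.78 ± 0.14) also rose in 5XFAD, beside 1.35 for Cd63. Ctsb lost its call without the second WT library (adjusted p = 0.0621) or the second 5XFAD library (adjusted p = 0.0587). It was also lost with no filter on low values (adjusted p = 0.153) and by limma without the trend and the robust step (adjusted p = 0.225). In aged against young Trem1-/- 5 of 21 fell, with Grn at −0.56 ± 0.09, where 1.71% of all genes were called. Groups did not overlap for 15 of the 21, all lower, where 21.2% of all genes had groups without overlap.

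Of 27 genes of the disease-associated microglia programme, a list that leaves out Cd9 and Cd63 because both belong to it, 17 rose in 5XFAD and 19 in 5XFAD Trem1+/-, with none falling and medians of 1.60 and 1.75. Cd63 at 1.35 lay below the first median. Of all genes 1.98% and 2.78% were called in these comparisons. With age in WT 15 of the 27 rose and 1 fell, with a median of 0.86, where Cd63 stood at 0.30 and Cd9 at −0.29. Of all genes 8.67% were called with age in WT. Of 22 homeostatic microglial genes 4 fell and 1 rose in 5XFAD against WT, with a median of −0.28. In 5XFAD Trem1+/- against WT none fell and 2 rose, with a median of −0.15. Groups lay lower without overlap for 11 of the 22 in 5XFAD and 9 in 5XFAD Trem1+/- against WT, and higher for 3 in each. Of all genes 17.3% and 25.5% had groups without overlap. None of the 22 was called between the 2 transgenic groups. With age in WT 13 fell.

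Over the 9 libraries of the 5XFAD table, the genes whose log2 values were most like those of Cd63 among 10020 compared (mean normalized count of at least 100) were Ldha, a lactate dehydrogenase chain (Pearson r = 0.987), Itgax, the CD11c integrin chain (r = 0.984), and Sdc3, a syndecan (r = 0.9748). These r values are a description over libraries that fall into a WT and 2 transgenic groups, so that a gene which differs between the groups has a high r. Itgax rose by 2.52 ± 0.26 in 5XFAD, more than Cd63. Among the 7 members themselves, the closest pair in the 5XFAD table was Cd151 and Cd53 (r = 0.759), and in the aging table also Cd151 and Cd53 (r = 0.629, 12 libraries). Cd63 and Cd9 had r = 0.657 in the 5XFAD table and −0.491 in the aging table.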

How the data were processed

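Per the submitters' processing notes, reads were trimmed with fastp, aligned with HISAT2 2.0.5 to GRCm38, counted with featureCounts 1.5.0-p3 and normalized with DESeq2 1.20.0. The annotation release, the strand setting and the treatment of reads with several matches are not given in the sources used here. Exons of Cd9, Cd81, Cd37 and Cd151 share 13 to 218 bases with genes on the other strand. The authors deposited normalized counts per library (a signal of read counts divided by a size factor), and for 1 pair of groups per table a log2 fold change, a p-value and a test score. Whole reads were recovered from the deposited values (100% and 99.9995% of nonzero values whole within 0.05 reads).

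Groups were compared by limma 3.58.1 under R 4.3.3, with a trended prior and robust estimation, after adding 1 to each normalized count and taking log2. All groups of a table entered 1 fit, for genes with a mean of at least 10, with Benjamini-Hochberg adjustment over all genes tested and a threshold of 0.05. Values per kb use the longest principal transcript in GENCODE, or all merged exons where said. DESeq2 1.42.0 and edgeR 4.0.16 were run on recovered reads as alternatives, and the scripts were tested on simulated data. No 2 libraries of a group were alike within sampling noise (chi-square per degree of freedom 12.75 to 45.62). Named genes are the members, Trem1, up to 3 called genes per list and comparison with the smallest p, further called genes of lists with few calls (chosen after their values were seen), and the 3 genes most like a called member. The members and gene lists were chosen with earlier results of these data known.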

Additional observations from a re-analysis of the deposited data

How the results depend on the processing

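Over 32 settings, 939 member values were recomputed. Of these 891 kept their direction and their side of the threshold. The 2 Cd63 calls were lost in 1 setting, limma without trend and robust, where 0 members were called in 5XFAD and 0 in 5XFAD Trem1+/- against WT (log2 differences 1.35 and 1.62). Counts of members called otherwise changed to 2 with no filter on low values in 5XFAD (Cd53 added) and in 5XFAD Trem1+/- against WT (Cd81 added), and to 1 (Cd53) between those 2 groups. With only the groups compared the count was 1 (Cd9) in young Trem1-/- against WT and 2 (Cd9 added) in 5XFAD Trem1+/- against WT, where DESeq2 also gave 2. The 1 call of Cd81 in aged against young Trem1-/- came with pseudocount 5, no filter, TMM, only the groups compared, the replicate block and DESeq2. On leaving out a library the count ranged from 0 to 1 with age in WT and from 0 to 1 for the interaction.

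Same-numbered libraries were not treated as pairs: residual correlations ran from −0.136 to 0.203 over the genes tested, and for 5XFAD Trem1+/- with 5XFAD they were 0.203, 0.0594 and 0.0788 (0.374, 0.155 and 0.149 over genes with a mean of at least 50). The replicate block left Cd63 called (adjusted p = 5.08e-06 and 4.03e-07), and changed 1 member's call, that of Cd81.

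Uncalled values near 0 changed sign 32 times in 15 of 56 pairs of member and comparison. Under TMM Cd81 with age in WT was 0.0079 (0.0025 with DESeq2), Cd151 in young Trem1-/- 0.018 and Cd37 in 5XFAD Trem1+/- against WT 0.014. With a library left out, the ranges were −0.10 to 0.11 for Cd81 with age in WT and −0.085 to 0.11 for Cd151 in young Trem1-/- against WT. In aged Trem1-/- against aged WT they were −0.21 to 0.10 (Cd9), −0.24 to 0.13 (Cd63), −0.19 to 0.059 (Cd82), −0.042 to 0.12 (Cd37), −0.073 to 0.15 (Cd53) and −0.25 to 0.073 (Cd151). They were −0.24 to 0.15 for Cd63 in aged against young Trem1-/-, and −0.18 to 0.036 (Cd53) and −0.25 to 0.074 (Cd151) for the interaction. In 5XFAD against WT they were −0.078 to 0.24 (Cd82) and −0.21 to 0.15 (Cd151), and in 5XFAD Trem1+/- against WT −0.093 to 0.028 (Cd37) and −0.055 to 0.13 (Cd53). The cause was not tested.

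Counts over all genes ranged, across the settings that keep all libraries, from 581 to 1768 with age in WT (1394 as reported), 97 to 649 for young Trem1-/- (415), 12 to 605 for aged against young Trem1-/- (275), 5 to 776 for the interaction (408), 32 to 795 in 5XFAD (337) and 27 to 1061 in 5XFAD Trem1+/- against WT (473). Of 36 calls followed among the other tetraspanins, partners, vesicle and lysosome genes, 23 were lost by limma without trend and robust, among them Itga6, Grn and Ctsl. Cd151 rested on the fewest reads, 244 to 866.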
